A study of Homo sapiens with 6 samples.

Results

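Genes of mitosis were examined after silencing of Mic60, a structural protein of the mitochondrial inner membrane encoded by IMMT. The labels give the cells as PC3, an established line of human prostate cancer grown from a bone metastasis. The methods of the study name pancreatic cancer lines and not PC3, and the label is followed here. The list holds 60 named genes that run cell division: the kinases that start it, the kinetochore and spindle proteins that move chromosomes, and the ubiquitin machinery that ends it. All 60 were found as single rows among the 57736 Ensembl genes of the count table, and all 60 were among the 14653 genes tested. The cells carried either a non-targeting control siRNA (siCTRL, n = 3) or an siRNA directed against Mic60 (siMic60, n = 3). A second label calls the same groups Mic60 WT and Mic60 KO. siRNA lowers a transcript without removing the gene, and a single Mic60-directed group was sequenced, so an effect of the siRNA reagent and an effect of losing Mic60 cannot be told apart. The library kit primes on the poly(A) tail, so counts come from the 3′ ends of transcripts.

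Entry into mitosis depends on CDK1, a kinase that works with a B-type cyclin and is held back by WEE1 and released by CDC25 phosphatases. Kinetochores built on CENPA chromatin then bind spindle microtubules, and the spindle checkpoint keeps CDC20 from activating the anaphase-promoting complex until every chromosome is attached. Most of these genes are transcribed late in the cell cycle, under MYBL2, FOXM1 and the MuvB complex, and their summed RNA in a culture rises with the share of cells in G2 and M phase. In bulk RNA, more cells in those phases and more RNA per cell cannot be told apart.

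IMMT (ENSG00000132305) fell to 8.12% of its control level, from 90.2 ± 1.14 to 7.23 ± 1.36 normalized counts (CPM after TMM scaling of the library sizes; SD, n = 3 each), a log2 fold change of −3.62 (adjusted p = 4.29e-10 by edgeR). Total counts were 6644495 to 8779877 per library. Among markers of PC3 identity, 4 of 4 epithelial genes were detected in every library, at a summed 1019 to 1066 CPM in siMic60 and 1523 to 2042 CPM in siCTRL libraries (scaled by library totals), while KLK3, the prostate-specific antigen gene, had 0 counts in all 6. The 5 luminal prostate markers summed to 46.6 to 52.4 CPM in siMic60 and 26.6 to 30.9 CPM in siCTRL libraries. The 6 fibroblast and endothelial markers, of which 2 or 3 were at 0, summed to 46.2 to 65.7 and 287 to 371 CPM. Nearly all of that sum was COL1A1, at 299 to 534 counts in siMic60 and 2215 to 3087 counts in siCTRL libraries. The others of these markers had 23 counts or fewer in every library. The part of these shifts in the results was not tested. Of 7 leukocyte markers, 4 or 5 were at 0 in each library, and the 7 summed to 0.342 to 2.48 CPM. Over the genes tested, the chi-square of the counts was 3.54 per degree of freedom between siCTRL replicates 2 and 3, 10.8 and 13.5 between siCTRL replicate 1 and those, and 8.10 to 10.1 between siMic60 libraries. For the mitotic genes, siCTRL replicate 1 stood apart: it was the lowest control library for 56 of the 60, against 37.8% of all genes tested. Its part in the results was not tested beyond leaving it out. The counts over all 60 genes and over some other lists, and the folds of some leading genes, are therefore also given without it. Counts for most single roles and lists below are from all 6 libraries only. The plot of fold changes shows every member both ways.

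Most members with a promoter at hand share a short promoter sequence. It was not used to choose them, but they were chosen as mitotic genes, many of which are transcribed late in the cell cycle. Its share among them is therefore not independent of their choice. Late cell cycle promoters are known to hold a cell cycle genes homology region, whose core reads TTTGAA or TTCGAA and is bound by MuvB, often downstream of CCAAT boxes bound by NF-Y. RefSeq promoters (GRCh38.p14, 250 bases before to 50 after each gene start) were at hand for 50 of the 60 members. They were missing for WEE1, AURKA, FOXM1, BIRC5, BUB3, TTK, UBE2C, CENPM, KNL1 and TPX2. On either strand, TTTGAA or TTCGAA stood in at least 1 promoter of 40 of the 50 members, against 15.5% of 10616 genes tested that have a promoter in the same table and 19.5% of all 27305 genes in it. CCAAT was found for 39 of 50 members against 43.3% of genes tested, and both motifs for 32 of 50 against 6.53%. The windows shown here are the core with 12 bases on each side, for the member with the largest fold in each role that rose and had a match near its start, for PLK1, and for CCNB2 and CDC25B, which had the core but did not rise. Capitals mark the core.
CKS1B, chr1:154974639-154974668, plus strand: gcgggcggcgtgTTTGAAagcgaggccaaa
PLK1, chr16:23678848-23678877, plus strand: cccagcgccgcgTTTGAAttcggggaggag
NCAPG, chr4:17810932-17810961, plus strand: tcgcgggaattaTTTGAAcgttcgagcggt
INCENP, chr11:62123989-62124018, plus strand: tgagccttcagtTTTGAAaatcatagtttt
BUB1B, chr15:40161034-40161063, plus strand: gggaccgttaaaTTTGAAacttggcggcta
ESPL1, chr12:53268256-53268285, plus strand: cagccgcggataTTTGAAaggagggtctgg
CENPA, chr2:26786026-26786055, plus strand: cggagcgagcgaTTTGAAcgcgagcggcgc
KIF18A, chr11:28108149-28108178, minus strand: aagtggcttgggTTTGAAtattgtggttga
PRC1, chr15:90994538-90994567, minus strand: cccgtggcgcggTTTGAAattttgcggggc
CCNB2, chr15:59105105-59105134, plus strand: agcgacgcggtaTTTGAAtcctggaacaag
CDC25B, chr20:3796260-3796289, plus strand: ctgctgttatttTTCGAAtatataaggagg
The matches cluster at the gene start. A core began within the 50 bases before the start for 25 of 50 members, against 2.72% of genes tested, and within the 50 bases after it for 13 of 50, against 2.35%. Farther upstream, each window of 50 bases held a match for 3 or 4 of the 50 members (6% to 8%), against 2.27% to 4.18% of genes tested. The core was found in members that rose and in members that did not: 22 of 30 members that rose and 18 of 20 that did not had it, and the median log2 fold change was 0.56 with the core (40 genes) and 0.72 without it (10 genes).

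**Figure D1:**
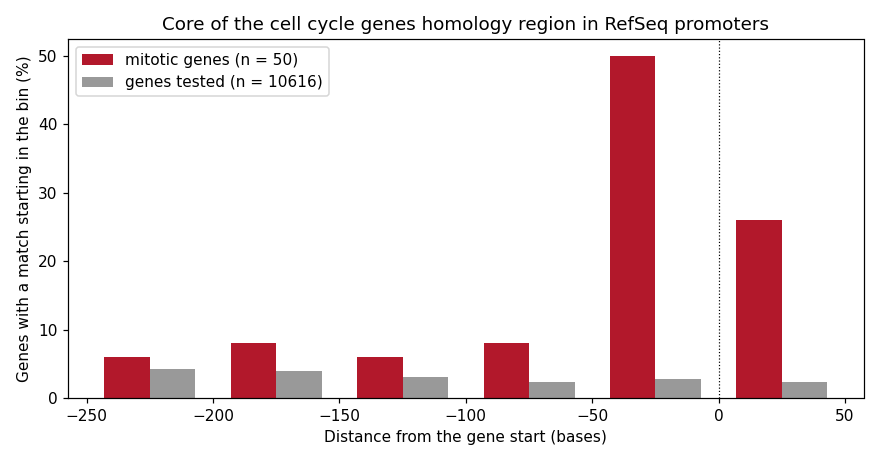
Share of genes (%) with a match to the cell cycle homology core that starts in each window of 50 bases, by distance from the gene start, for the 50 mitotic genes with a RefSeq promoter (red) and 10616 genes tested (grey). The 2 windows that flank the start hold a match for 25 and 13 of the mitotic genes.

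Of the 60 members, 35 rose in siMic60 cells, 2 fell and 23 did not pass the test (edgeR's quasi-likelihood test, Benjamini-Hochberg adjusted p under 0.05 over all genes tested). Among all genes tested, 17.7% were called higher and 17.9% lower. The rises were many but small. The 35 ran from 1.35-fold (INCENP) to 3.13-fold (CKS1B) with a median of 1.62-fold, and 4 of them were at least 2-fold, or 6.67% of the members, near the 5.60% of all genes that rose that far. The median log2 fold change over the 60 was 0.59, against 0.0022 over all genes tested. Log2 fold changes were above 0 for 57 members, and for 38 every siMic60 library lay above every siCTRL library, against 23.7% of all genes. All siMic60 libraries lay below for CDC25B, BUB3 and UBE2S, against 24.1% of all genes.
Without siCTRL replicate 1, 26 rose (15.8% of all genes called higher), 2 fell (15.0% called lower) and the median was 0.41. The 9 members that lost their call were BUB1, INCENP, KIF14, KIF18A, KIF20B, MAD2L1, NCAPG, NUF2 and TTK. When another library was left out, SPC24, CENPA and HMMR were also lost at least once, and the other 23 kept their call each time. The mean log2 CPM of the 60 genes was 4.76, 5.28 and 5.29 in siCTRL replicates 1, 2 and 3, and 5.69, 5.68 and 5.59 in the siMic60 replicates. The 3 siMic60 libraries were therefore above all 3 control libraries, and siCTRL replicate 1 was farther from its own group than siCTRL replicates 2 and 3 were from siMic60. The ratio of the highest to the lowest library had a median of 1.54 over the members within siCTRL and 1.22 within siMic60, where all genes tested gave 1.29 and 1.30.

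**Figure D2:**
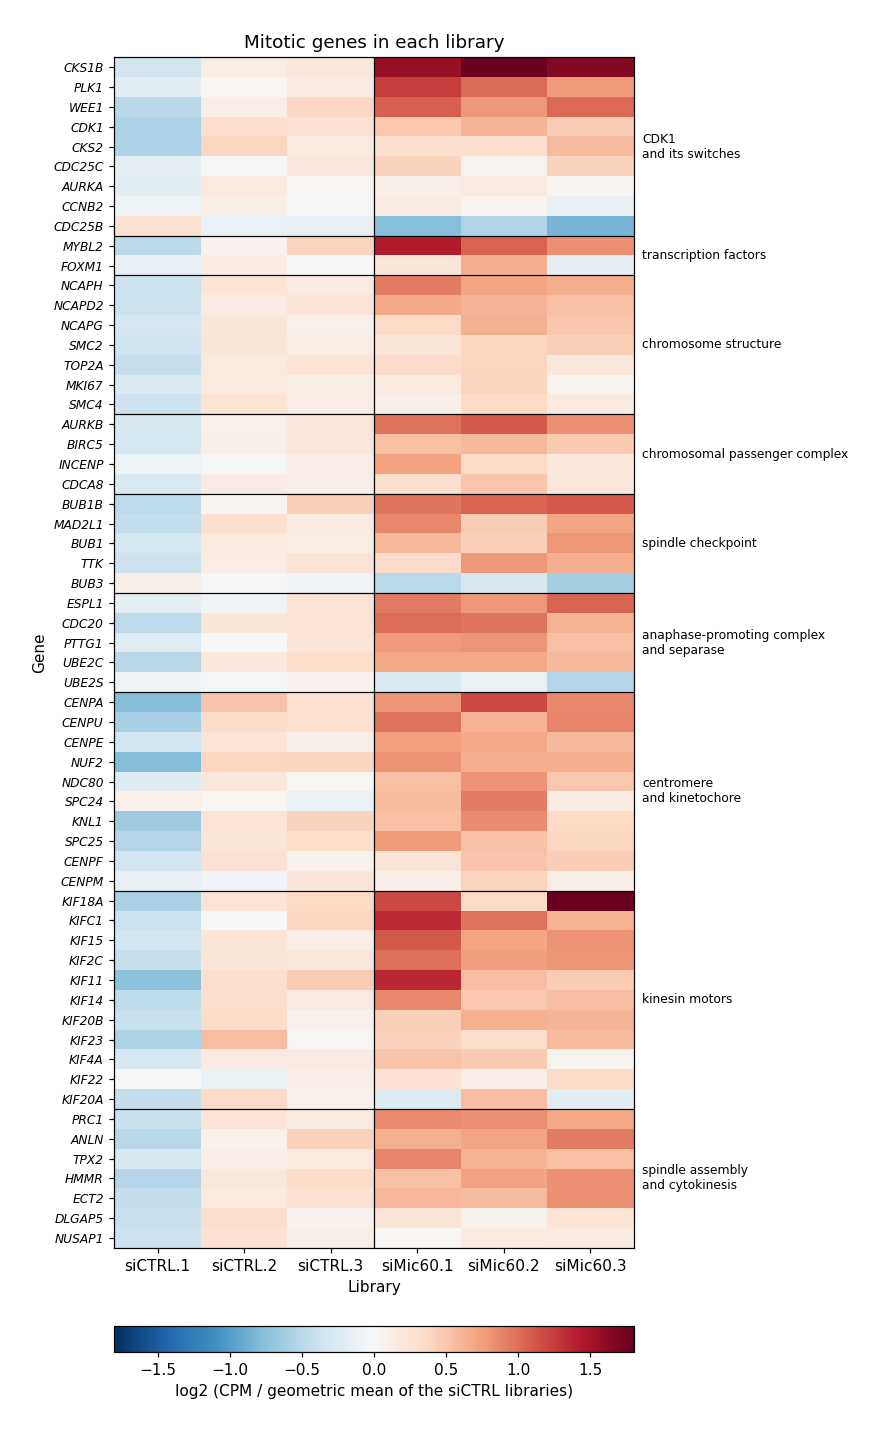
Log2 ratio of each library's CPM to the geometric mean of the 3 siCTRL libraries for the 60 mitotic genes, grouped by role and ordered by fold change. siCTRL replicate 1 is the lowest control for 56 genes, and CDC25B, BUB3 and UBE2S are the genes that are lower in all 3 siMic60 libraries.

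The CDK1 switch moved in parts. Of its 9 genes, 3 rose, 1 fell and 5 did not pass. CKS1B (ENSG00000173207), a small subunit of cyclin-dependent kinases that also serves the ubiquitin ligase for p27, was at 135, 186 and 197 CPM in siCTRL and at 503, 583 and 533 CPM in siMic60. It rose 3.13-fold (95% interval 2.54 to 3.85, adjusted p = 5.59e-07 by edgeR), the largest fold of the 60, and 2.83-fold without siCTRL replicate 1. Its close paralog CKS2 was at 19.4, 37.1 and 32.0 CPM in siCTRL and at 34.6, 35.2 and 42.3 CPM in siMic60. These groups overlap, and its fold of 1.27 (0.952 to 1.69, adjusted p = 0.186 by edgeR) did not pass. The 95% intervals of the pair do not meet, but the difference itself was not tested.
PLK1 (ENSG00000166851), the Polo-like kinase that drives mitotic entry and spindle assembly, was at 25.6, 29.9 and 32.8 CPM in siCTRL and at 69.5, 59.2 and 49.8 CPM in siMic60. It rose 2.02-fold (1.61 to 2.52, adjusted p = 1.12e-04 by edgeR) and 1.90-fold without siCTRL replicate 1. WEE1, which phosphorylates and inhibits CDK1, rose 1.89-fold: its level went from 9.40 ± 2.71 to 17.8 ± 1.85 CPM (SD, n = 3 each). CDC25B (ENSG00000101224), a phosphatase that reverses the WEE1 mark, was at 179, 135 and 133 CPM in siCTRL and at 86.3, 101 and 82.7 CPM in siMic60. It fell by 0.73 on the log2 scale (SE 0.14, adjusted p = 0.00102 by edgeR), to 0.605 of control, and to 0.676 of control without siCTRL replicate 1. The inhibitor of CDK1 was thus higher and this activator lower, while the related phosphatase CDC25C had a fold of 1.23 (adjusted p = 0.220 by edgeR).
CDK1 itself was at 76.5, 140 and 136 CPM in siCTRL and at 159, 174 and 155 CPM in siMic60. The groups did not overlap, but the fold of 1.38 (1.06 to 1.80) missed the threshold at an adjusted p of 0.0562 by edgeR, and it was 1.18 without siCTRL replicate 1. CDK1 passed as higher in 6 of 13 alternative settings: without a minimum count, with DESeq2, with limma-trend, with the replicate block (adjusted p = 0.0275 by edgeR), and without siCTRL replicate 2 or 3. One of its B-type cyclins, CCNB2, was at 29.3 ± 1.86 and 29.8 ± 2.97 CPM (SD, n = 3 each), a fold of 1.02 (0.828 to 1.25). The B-type cyclin CCNB1, outside the list of members, rose 1.40-fold (1.09 to 1.80, adjusted p = 0.0349 by edgeR). Without siCTRL replicate 1, CCNB1 had a fold of 1.23 and did not pass (adjusted p = 0.0951 by edgeR). AURKA, the Aurora kinase of the spindle poles, had a fold of 1.07 (0.892 to 1.29).

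**Figure D3:**
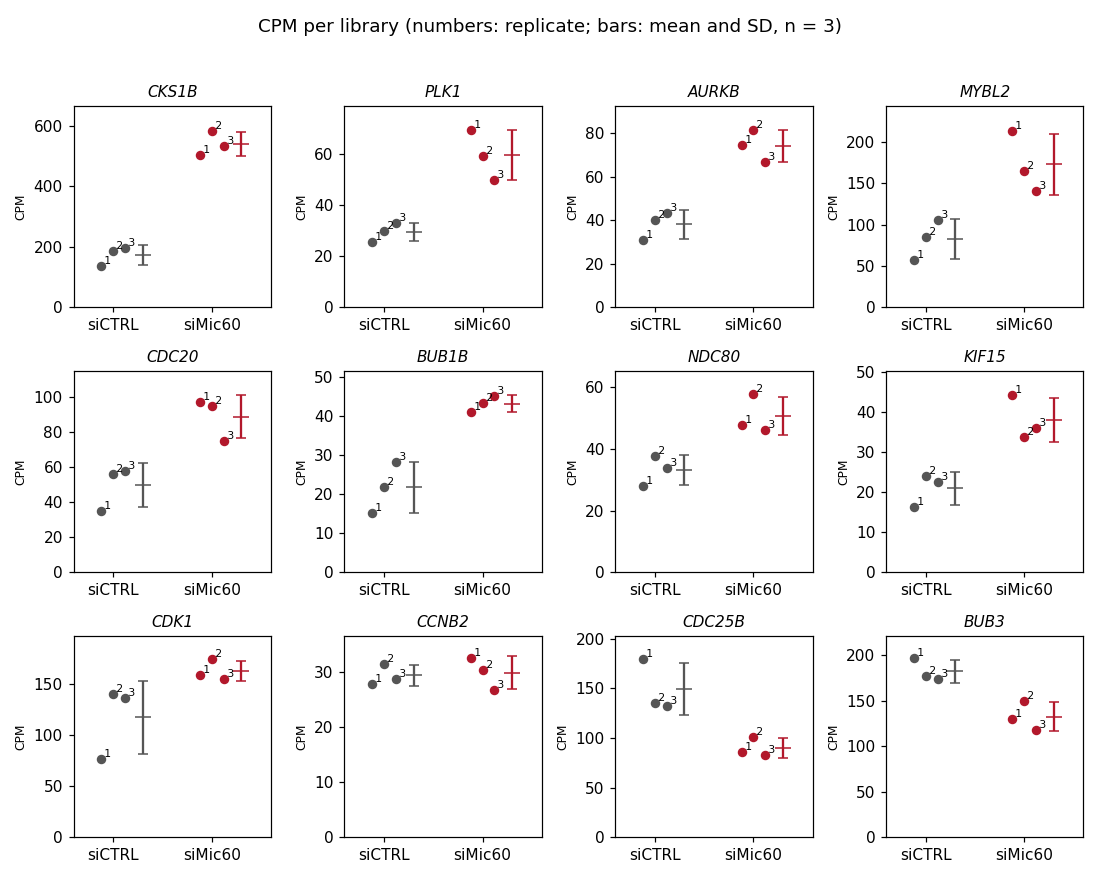
CPM after TMM scaling in each of the 6 libraries for 12 mitotic genes, with the mean and SD of each group (n = 3) beside the points and each axis from 0. CKS1B, PLK1 and AURKB separate clearly, CDK1 separates with siCTRL replicate 1 far below the other controls, CCNB2 overlaps, and CDC25B and BUB3 are lower in siMic60.

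Of the pair of transcription factors, MYBL2 (ENSG00000101057), the B-Myb protein that joins MuvB to activate late cell cycle genes, was at 56.9, 84.5 and 106 CPM in siCTRL and at 214, 165 and 141 CPM in siMic60. It rose 2.11-fold (1.58 to 2.81, adjusted p = 6.28e-04 by edgeR) and 1.83-fold without siCTRL replicate 1. FOXM1, the forkhead factor of the same promoters, was at 33.7, 41.1 and 37.1 CPM in siCTRL and at 43.1, 58.4 and 33.2 CPM in siMic60. siMic60 replicate 3 was the lowest of the 6 libraries, and the log2 fold change of 0.27 (SE 0.18) did not pass.

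In the chromosomal passenger complex, which corrects faulty attachments and steers cytokinesis, 3 of 4 genes rose. AURKB (ENSG00000178999), its kinase, was at 30.8, 40.0 and 43.5 CPM in siCTRL and at 74.5, 81.4 and 66.6 CPM in siMic60, a rise of 1.95-fold (1.57 to 2.41, adjusted p = 1.27e-04 by edgeR) and of 1.78-fold without siCTRL replicate 1. BIRC5, or survivin, rose 1.43-fold (205 ± 37.8 CPM in siCTRL and 293 ± 11.2 CPM in siMic60, SD, n = 3 each). INCENP, the scaffold, rose 1.35-fold but kept its call in 4 of 13 alternative settings. CDCA8, or borealin, had a fold of 1.26 and did not pass (adjusted p = 0.0886 by edgeR), although its groups did not overlap. The 2 Aurora kinases of the list differed, with AURKB near 1.95-fold and AURKA near 1.07-fold, and their 95% intervals do not meet, but the difference itself was not tested.

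The spindle checkpoint genes split. BUB1B (ENSG00000156970), which encodes the checkpoint protein BubR1, was at 15.2, 21.8 and 28.4 CPM in siCTRL and at 40.9, 43.4 and 45.2 CPM in siMic60, and rose 1.99-fold (1.52 to 2.60, adjusted p = 7.00e-04 by edgeR). MAD2L1, which encodes the CDC20 inhibitor MAD2, rose 1.56-fold. The kinases BUB1 and TTK rose with log2 fold changes of 0.59 (SE 0.19) and 0.59 (SE 0.20). Without siCTRL replicate 1, MAD2L1, BUB1 and TTK did not pass, at adjusted p of 0.0513, 0.0842 and 0.100 by edgeR, while BUB1B still rose, 1.73-fold. BUB3 (ENSG00000154473), which binds the phosphorylated kinetochore scaffold and brings BUB1 and BubR1 to it, moved against them. It was at 197, 177 and 173 CPM in siCTRL and at 130, 150 and 118 CPM in siMic60, and fell by 0.46 on the log2 scale (SE 0.12, adjusted p = 0.00893 by edgeR). Every siMic60 library was below every siCTRL library, and siCTRL replicate 1 was the highest control, as it was for CDC25B.

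Among genes of the anaphase-promoting complex and of the cut that separates sister chromatids, 4 of 5 rose. ESPL1, or separase, the protease that cleaves cohesin, was at 11.4, 12.4 and 15.3 CPM in siCTRL and at 24.7, 22.3 and 26.7 CPM in siMic60, a rise of 1.89-fold (1.47 to 2.42). PTTG1, or securin, which inhibits separase, rose 1.62-fold (106 ± 15.6 CPM in siCTRL and 172 ± 15.6 CPM in siMic60, SD, n = 3 each). CDC20, the activator of the complex, was at 35.1, 56.2 and 57.7 CPM in siCTRL and at 97.2, 94.7 and 74.9 CPM in siMic60, and rose 1.79-fold (1.39 to 2.31, adjusted p = 0.00157 by edgeR). All 3 kept their calls without siCTRL replicate 1, at 1.78-fold, 1.52-fold and 1.57-fold.
The 2 ubiquitin-conjugating enzymes of the complex went apart. UBE2C, which starts the ubiquitin chain, rose 1.53-fold (73.5 ± 20.5 CPM in siCTRL and 113 ± 5.04 CPM in siMic60, SD, n = 3 each). A pseudogene named UBE2CP5 had counts equal to 9.99% of those of UBE2C, so the UBE2C value is uncertain to that extent. UBE2S, which extends the chain, was at 311, 319 and 342 CPM in siCTRL and at 271, 299 and 225 CPM in siMic60. All 3 siMic60 libraries were lower, but the fold of 0.818 did not pass (adjusted p = 0.0787 by edgeR). It passed as lower with library totals in place of TMM and without siMic60 replicate 2.

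At the centromere and kinetochore, 6 of 10 genes rose and none fell. CENPE, a kinesin of the outer kinetochore, was at 25.3, 37.8 and 34.6 CPM in siCTRL and at 53.5, 51.9 and 48.3 CPM in siMic60, a rise of 1.57-fold (1.26 to 1.96). CENPU of the inner kinetochore rose 1.71-fold (18.8 ± 6.01 CPM in siCTRL and 32.2 ± 3.95 CPM in siMic60, SD, n = 3 each). CENPA, the histone H3 variant that marks the centromere, was at 5.63, 13.9 and 11.7 CPM in siCTRL and at 16.9, 22.0 and 17.6 CPM in siMic60. It rose 1.82-fold, and 1.48-fold without siCTRL replicate 1, which was less than 50% of either other control.
The 4 subunits of the NDC80 complex, the microtubule coupler, had like folds. NDC80 rose 1.53-fold (1.23 to 1.89), from 28.0, 37.8 and 33.7 CPM to 47.8, 57.8 and 46.2 CPM. NUF2 and SPC24 rose 1.53-fold and 1.49-fold, and SPC25, at 1.43-fold, did not pass (adjusted p = 0.0788 by edgeR). NUF2 had an adjusted p of 0.0805 by edgeR without siCTRL replicate 1, where it was at 14.1 CPM against 32.0 CPM in each other control. SPC24 was highest in that library among the controls, and it lost its call when siCTRL replicate 2, siCTRL replicate 3, siMic60 replicate 1 or siMic60 replicate 2 was left out (adjusted p of 0.0545 to 0.148 by edgeR). Of the others, CENPF had a fold of 1.30 (adjusted p = 0.0630), the scaffold KNL1 1.45 (adjusted p = 0.0676) and CENPM 1.16 (adjusted p = 0.410, all by edgeR).

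Of 11 kinesins, the motors that slide, sort and depolymerize spindle microtubules, 6 rose and none fell. KIF15, which backs up KIF11 in keeping spindle poles apart, was at 16.3, 24.1 and 22.4 CPM in siCTRL and at 44.3, 33.8 and 36.1 CPM in siMic60, a rise of 1.81-fold (1.41 to 2.32, adjusted p = 0.00112 by edgeR). KIF2C, a microtubule depolymerase of the centromere, rose 1.76-fold (21.2 ± 4.91 CPM in siCTRL and 37.4 ± 3.34 CPM in siMic60, SD, n = 3 each). KIFC1, a minus-end motor that clusters extra centrosomes, was at 10.4, 13.6 and 17.9 CPM in siCTRL and at 34.5, 26.9 and 21.0 CPM in siMic60, and rose 1.96-fold (1.42 to 2.69). These 3 also rose without siCTRL replicate 1, between 1.56-fold and 1.74-fold.
KIF18A, which dampens chromosome movement at the plate, had the second largest fold of the list, 2.25, on few counts: 16, 27 and 30 in siCTRL and 43, 30 and 86 in siMic60. Its groups overlap in CPM, and it did not pass without siCTRL replicate 1 or without siMic60 replicate 3. KIF14 and KIF20B, both motors of cytokinesis, rose 1.52-fold and 1.45-fold and also lost their calls without siCTRL replicate 1. KIF11, the motor that separates the poles, was at 5.39, 11.0 and 12.3 CPM in siCTRL and at 23.2, 13.2 and 12.3 CPM in siMic60, and its fold of 1.68 did not pass (adjusted p = 0.0586 by edgeR). KIF4A (1.27), KIF23 (1.29), KIF22 (1.18) and KIF20A (1.04) did not pass either. The motor of the cytokinesis zone, KIF20A, ranged from 7.31 to 12.6 CPM in siCTRL and from 8.28 to 14.4 CPM in siMic60.

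Among spindle assembly and cytokinesis proteins, 5 of 7 rose, and these 5 also rose without siCTRL replicate 1. PRC1, which bundles the midzone microtubules, was at 31.0, 48.4 and 45.7 CPM in siCTRL and at 73.6, 72.2 and 66.4 CPM in siMic60, a rise of 1.69-fold (1.35 to 2.13, adjusted p = 0.00142 by edgeR). TPX2, which activates AURKA on the spindle, rose 1.60-fold (1.29 to 1.97), from 92.9, 123 and 128 CPM to 209, 176 and 165 CPM. ANLN, or anillin, of the contractile ring, rose 1.64-fold (41.4 ± 12.5 CPM in siCTRL and 67.8 ± 6.97 CPM in siMic60, SD, n = 3 each). ECT2, which activates RhoA at the division plane, and HMMR, a spindle pole protein, rose 1.56-fold and 1.57-fold. NUSAP1 and DLGAP5, which stabilize spindle microtubules, had folds of 1.07 (0.861 to 1.33) and 1.11 (0.870 to 1.43), and both fell below 1 as folds when siCTRL replicate 1 was left out.

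For chromosome structure, the 3 non-SMC subunits of condensin I rose and the ATPase core did not pass. NCAPH was at 18.5, 28.8 and 26.8 CPM in siCTRL and at 45.7, 39.5 and 38.2 CPM in siMic60, a rise of 1.67-fold (1.30 to 2.13). NCAPD2 and NCAPG rose with log2 fold changes of 0.59 and 0.49, and NCAPG did not pass without siCTRL replicate 1 (adjusted p = 0.0877 by edgeR). The core subunits SMC2 and SMC4, which condensin I shares with condensin II, had folds of 1.25 (1.01 to 1.56) and 1.14 (0.918 to 1.42). The intervals of SMC2 and SMC4 overlap those of the other subunits, and the difference was not tested.
MKI67 and TOP2A, members that are used as proliferation markers, did not pass. MKI67, the Ki-67 antigen, was at 64.2, 86.0 and 83.0 CPM in siCTRL and at 86.9, 102 and 80.1 CPM in siMic60, a fold of 1.15 (0.937 to 1.42). TOP2A, the topoisomerase that untangles sister chromatids, was at 339, 509 and 532 CPM in siCTRL and at 574, 589 and 521 CPM in siMic60, a fold of 1.22 (0.981 to 1.52). In both genes the siMic60 libraries overlapped siCTRL replicates 2 and 3, and without siCTRL replicate 1 the folds were 1.06 and 1.08.

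**Figure D4:**
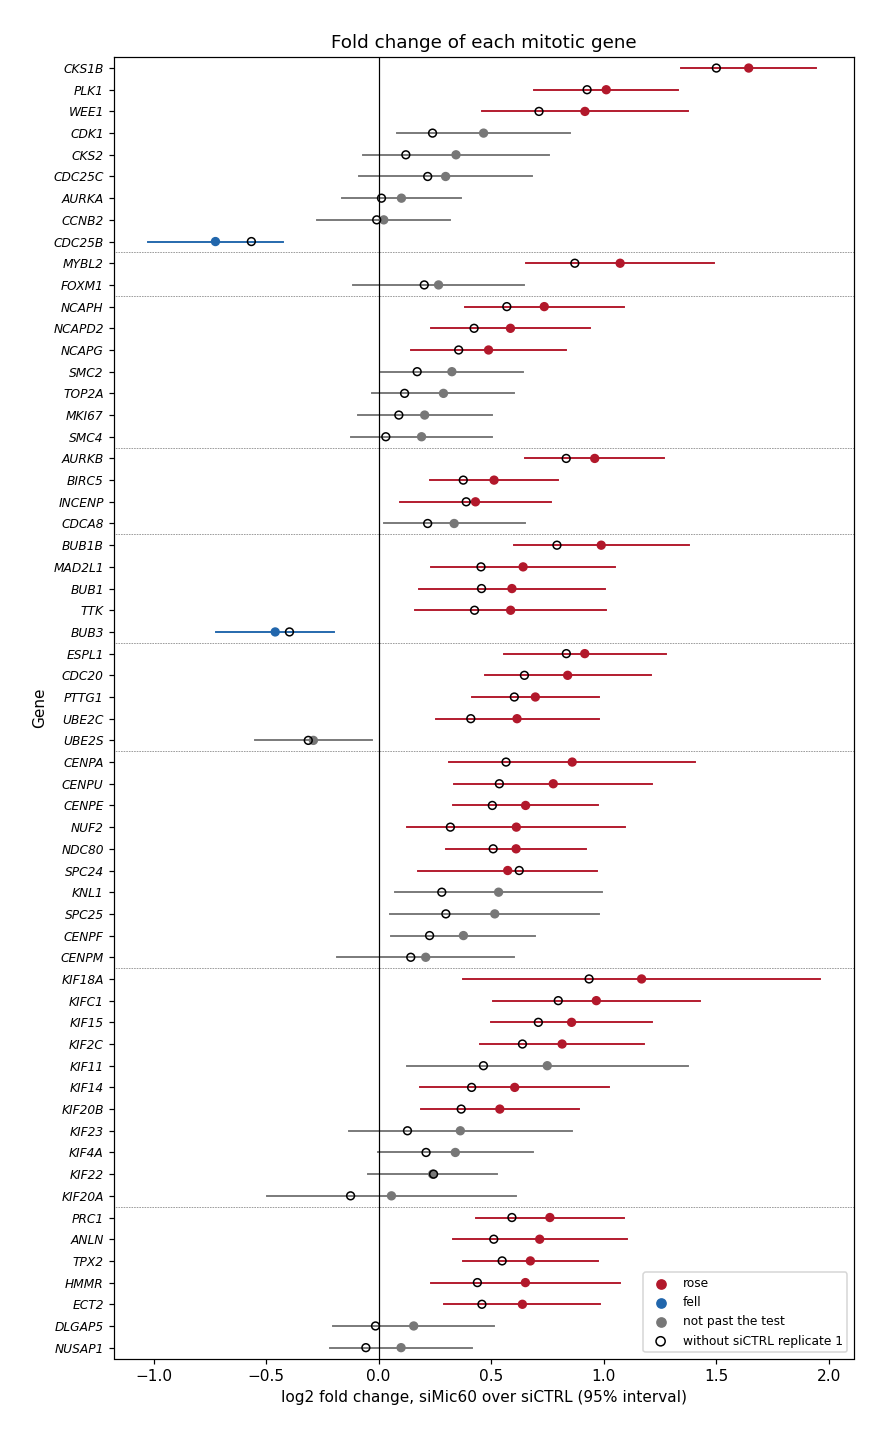
Log2 fold change of each mitotic gene, siMic60 over siCTRL (n = 3 each), with its unadjusted 95% interval, in red where it rose, blue where it fell and grey where it did not pass after adjustment over all genes tested. Open circles leave out siCTRL replicate 1 and lie closer to 0 for most genes, with the median moving from 0.59 to 0.41.

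Beyond the 60, other genes of mitosis and 14 transcription regulators of their promoters were listed by function. Earlier results of these data were known at that point, but the genes were not picked gene by gene for how they moved. Of 134 with a row in the table, 131 were tested, and 57 rose, 2 fell and 72 did not pass, against 17.7% of all genes called higher and 17.9% lower. Their median log2 fold change was 0.43, and without siCTRL replicate 1, 46 rose and the median was 0.30.
Of 35 other centromere and kinetochore genes, 17 rose and none fell. CENPQ, a partner of CENPU in the inner kinetochore, rose 3.22-fold (8.24 ± 1.46 CPM in siCTRL and 26.5 ± 4.59 CPM in siMic60, SD, n = 3 each). ITGB3BP, or CENP-R of the same subcomplex, rose 2.12-fold. Of 35 other spindle, centrosome and cytokinesis genes, 18 rose and TUBGCP2 of the gamma-tubulin complex fell. DEPDC1B and HAUS8, a subunit of the augmin complex, rose 3.32-fold and 1.98-fold.
Of 17 other mitotic kinases, phosphatases and inhibitors, 7 rose and none fell. PKMYT1, the membrane-bound relative of WEE1 that also inhibits CDK1, rose 2.41-fold (15.9 ± 3.32 CPM in siCTRL and 38.2 ± 4.22 CPM in siMic60, SD, n = 3 each), and the kinase MELK rose 2.72-fold. Both CDK1 inhibitory kinases were thus higher. Of 15 tested subunits and regulators of the anaphase-promoting complex, 5 rose and ANAPC16 fell, with CDC27 at 1.81-fold and CDC23 at 1.99-fold. CDC23 and KIF20A overlap at their 3′ ends on opposite strands, as do FOXM1, SMC4, NCAPG, UBE2S, CENPU and SPC25 with other genes. Whether the counting used strand is not stated, so these values are uncertain.
Cohesin and condensin subunits outside the list had 4 of 15 genes higher (3 without siCTRL replicate 1) and none lower, or 26.7% against 17.7% of all genes, with a median log2 fold change of 0.12 (0.017 without that library). Among them were NCAPH2 of condensin II at 2.33-fold and the cohesin regulator PDS5A at 1.45-fold. In the list of MuvB, RB-family, E2F-complex and NF-Y subunits, 6 of 14 rose (4 without siCTRL replicate 1) and none fell. That is 42.9% higher, against 17.7% of all genes, with a median log2 fold change of 0.24 (0.31 without that library). TFDP1, the partner of E2F factors, and the MuvB subunit LIN52 were both at 1.80-fold.

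**Figure D5:**
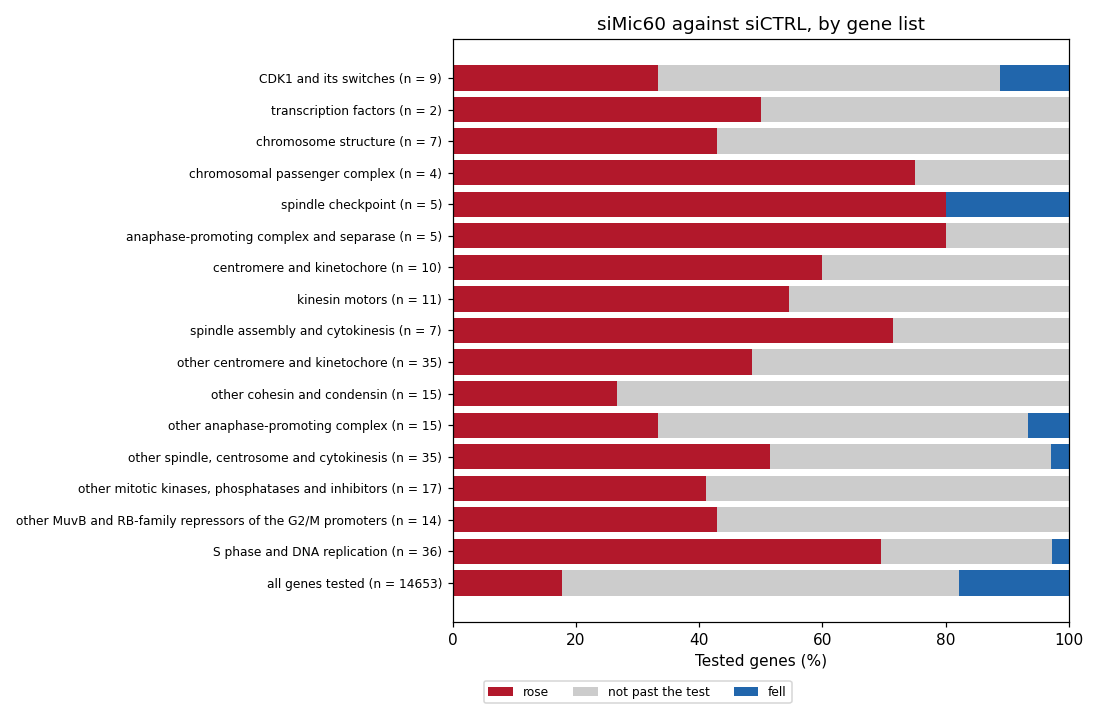
Share of tested genes (%) that rose (red), did not pass the test (grey) or fell (blue) in siMic60 against siCTRL. Rows are the 9 role groups of the mitotic list, the 6 lists of other genes of mitosis and of regulators of their promoters, the S phase list and all genes tested. Of the S phase genes, 25 of 36 rose, and of all genes 17.7%.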

How the data were processed

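The deposited values are whole-number counts per Ensembl gene without normalization, in 1 column for each library. RSEM 1.2.3, DESeq2 and hg19 (GRCh37) are named, without roles, in the processing notes of the submitters, so the counts can be rounded estimates. For the aligner, annotation, filters and strand setting, nothing is given in the sources used here. Reads shared with pseudogenes or with genes on the other strand are therefore uncertain. The methods of the study describe its data in general as from independent biological replicates. The labels do not say that these libraries came from separate cultures, and if they did not, each p-value reflects technical spread.

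Ensembl identifiers were matched to symbols for 52301 rows. The test was edgeR 4.0.16 under R 4.3.3 (TMM, at least 10 counts in at least 3 of 6 libraries, quasi-likelihood test, Benjamini-Hochberg threshold 0.05). Log2 CPM used a prior count of 1. Intervals are unadjusted 95% intervals from the standard error. In a simulation with these library sizes over 14410 genes, the test called 28 of 66 genes altered 1.5-fold, 46 of 66 altered 2-fold, 63 of 64 altered 5-fold, and 12 of 14214 left alone. There 200 genes were altered and each gene was drawn independently, whereas 35.5% of genes tested were called in the data. Its rates therefore need not hold for these data. Alternatives were DESeq2 1.42.0, limma 3.58.1 (trend, prior count 2), DESeq2 size factors, library totals, no minimum, a replicate block, a minimum of 50 counts, and omission of each library in turn with the tested genes held fixed. Promoter motifs were also counted in the 100 bases before the start alone.

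The members, the lists and the rule for named genes were chosen with earlier results of these data known. Named are the 3 called members of each role with the smallest adjusted p, members that fell, those that did not pass, CKS1B with CKS2, and the 2 called genes with the smallest adjusted p in each other list. The remaining called members (WEE1, BUB1, TTK, UBE2C, CENPA, NUF2, SPC24, KIF14, KIF18A, KIF20B, ECT2 and HMMR) are named to account for every member. Values for them, and CCNB1, TUBGCP2, ANAPC16 and MCM3, were chosen after they were seen. Protein features were not analysed here. The list of members that overlap other genes is not reported here in full.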

Additional observations from a re-analysis of the deposited data

How the results depend on the processing

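Of the 35 members that rose, 23 rose in each of 13 alternative settings, and BUB3 and CDC25B fell in each. The count that rose was 30 with library totals (15.2% of all genes called higher), 40 without a minimum (11.3%), 36 with DESeq2 (17.0%), 35 with limma-trend (17.6%) and 26 to 36 with a library left out, 26 without siCTRL replicate 1. The median log2 fold change was 0.41 to 0.68 with a library left out. Libraries with the same replicate number showed no clear shared deviation (correlations −0.090, −0.037 and 0.035, against −0.093 to 0.113 for different numbers). These values cannot tell whether the libraries were made in pairs, and the labels do not say so. With the replicate block 37 rose (16.3%) and 2 fell. Library totals moved the median of all genes to −0.055. Differences near 0 changed sign: CCNB2 was −0.035 and KIF20A −0.0056 with library totals, and with a library left out CCNB2 ran from −0.035 to 0.10, KIF20A from −0.24 to 0.25, NUSAP1 from −0.057 to 0.23 and DLGAP5 from −0.014 to 0.33. Of the other genes of the anaphase-promoting complex, 3 rose with library totals and 3 to 6 with a library left out, 3 without siMic60 replicate 3. MCM3, the S phase gene that fell, was lost with the replicate block (0 fell) and in all but 1 of the fits with a library left out (0 to 1). In the 100 bases before the start, 25 of 50 members held the homology core, against 4.38% of genes tested, and 19 held both motifs, against 1.23%. Among these settings the cause of each change was not tested. Low counts limit KIF18A, which averaged 38.7 counts a library. The planned count of KEN motifs in the proteins was not run.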

Other observations

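Genes of S phase and DNA replication, listed for context, moved with the mitotic genes. Of 36 tested, 25 rose and 1, the replicative helicase subunit MCM3, fell, against 17.7% and 17.9% of all genes called higher and lower. DTL, which targets the licensing factor CDT1 for destruction, rose 4.56-fold (19.0 ± 3.85 CPM in siCTRL and 86.8 ± 16.0 CPM in siMic60, SD, n = 3 each), and thymidine kinase TK1 rose 3.19-fold. The median log2 fold change of the list was 0.74, and 0.61 without siCTRL replicate 1, where 21 rose. The mean log2 CPM of the 36 genes was 4.44, 4.87 and 4.96 in siCTRL replicates 1, 2 and 3 and 5.57, 5.54 and 5.25 in the siMic60 replicates. siCTRL replicate 1 was the lowest of the 6 libraries for 32 of these genes and for 53 of the 60 mitotic genes, against 23.4% of all genes tested.

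The 4 mitotic genes that were not lowest in siCTRL replicate 1 among the controls were CDC25B, BUB3, SPC24 and KIF22, named after their values were seen. CDC25B and BUB3 are also the members that fell. The values of siCTRL replicate 1 enter those folds, so these traits are not independent. Both genes also fell without that library.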
